A study of Rattus norvegicus with 8 samples.

Results

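Cd4, Cd8a and Cd8b encode the coreceptors by which T cells are usually sorted into helper and cytotoxic classes, and here their transcripts were followed in macrophages and microglia of the injured rat spinal cord. They are 3 of the 32623 genes in the count tables. The genes were chosen by their levels in cells with at least 3 unique molecular identifiers (UMIs, each standing for 1 captured transcript) of Tyrobp, an adaptor of myeloid and natural killer cells, against cells with at least 2 UMIs of the CD3 chains Cd3d, Cd3e and Cd3g, by injury group, because Cd8a was higher in macrophages after injury. Their levels by injury group and in these cells against T cells are therefore described below without a test.

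CD4 binds MHC class II and interleukin 16, whereas CD8 binds MHC class I, and the tails of CD4 and of the CD8 alpha chain carry the kinase Lck. The CD8 alpha chain (Cd8a) can pair with itself or with the beta chain (Cd8b). Conventional cytotoxic T cells carry the alpha-beta form, and rat natural killer (NK) cells carry the alpha-alpha form. Unlike in the mouse, rat monocytes, macrophages and microglia are known to display CD4, and CD8 has been described on activated rat macrophages. Cd8a and Cd8b are neighbours on the same chromosome in the RefSeq annotation.

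Cells of whole dissociated spinal cord from female Wistar rats aged 8 weeks were sequenced with a droplet method that reads the 3′ ends of transcripts, in 8 libraries. Each rat had a laminectomy at T9. Sham rats, with 2 libraries, received no impact, while for 2 libraries each of mild, moderate and severe injury a 10 g weight fell onto the cord from 12.5, 25 and 50 mm. Tissue of 10 mm around the site was taken 7 days later, so that microglia, border macrophages and cells that came from the blood were in the same libraries. The 8 libraries came from 8 cords. Tests of injured against sham measure the spread between libraries of a group. The p-values of fits with library as a block measure how much a difference within libraries varied from library to library.

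The libraries held 31482153 to 131045446 UMIs, and 55449 of 68658 deposited cells passed the filters on mitochondrial share, doublet score and depth. Any pair of libraries shared 5 to 40 cell barcodes, at most 0.452% of the smaller library. Macrophages were defined as cells with at least 3 Tyrobp UMIs and at least 5 UMIs over Csf1r, C1qa, C1qb, C1qc and Cd68, no CD3 UMI, under 1% of UMIs from the neutrophil genes S100a8 and S100a9, and at most 1 UMI of NK, B or dendritic cell genes. This gave 26744 macrophages, 48.2% of the kept cells, with 536 and 2069 in the sham libraries and 1092 to 7150 in the injured ones. Aif1, a macrophage and microglia marker that the definition did not use, was found at 924 to 1940 CPM (UMIs per 1000000 UMIs of the summed cells) in all 8 libraries.

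The sham 1 library stood apart. Neutrophils made up 69.0% of its cells with at least 3 Tyrobp UMIs and macrophages only 9.55%, against 98.1% macrophages in sham 2. Even among the macrophages of sham 1, the 9 neutrophil markers summed to 2407 CPM, against 33.8 CPM in sham 2 and 48.8 to 202 CPM in the injured libraries. The differences of the 3 genes between sham and injured macrophages are given with and without sham 1.

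Over all 8 libraries before any filter, the 48237 cells with at least 3 Tyrobp UMIs held 2995 Cd4, 138954 Cd8a and 22056 Cd8b UMIs, or 5.64, 262 and 41.6 CPM. The 1683 cells with at least 2 CD3 UMIs held 159 Cd4, 2455 Cd8a and 658 Cd8b UMIs, or 17.7, 273 and 73.2 CPM. The Tyrobp cells were thus close to the CD3 cells in Cd8a and below them in Cd8b and Cd4. By group, Cd8a in the Tyrobp cells was 23.7 CPM in sham, 273 in mild, 325 in moderate and 293 in severe, and in the CD3 cells it was 135, 364, 300.4 and 311 CPM. Close to the limits, Cd8a was 12 CPM in the 3544 cells with 2 Tyrobp UMIs and 14.4 CPM in the 2071 cells with 3. It was 142 CPM in the 566 cells with 1 CD3 UMI and 62.1 CPM in the 208 cells with 2.

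Of the 3 genes, Cd8a differed most between sham and injured macrophages. It was at 29.9 and 29.2 CPM in the sham libraries, 334 and 288 CPM in mild, 339 and 416 CPM in moderate, and 485 and 274 CPM in severe. Every injured library lay above both sham libraries, with a mean of 356 ± 80.5 CPM (SD, n = 6) against 29.5 ± 0.480 CPM (SD, n = 2), a ratio of 12.1 (3.59 on the log2 scale, and 3.61 without sham 1). The means were 311, 378 and 380 CPM from mild to severe. Both moderate libraries were above both mild libraries, and the severe libraries lay at either end of the injured range.

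Cd8b followed at a lower level. It was at 9.84 and 12 CPM in sham, 35.1 and 48.7 in mild, 64.9 and 46.4 in moderate, and 61.6 and 63.0 in severe macrophages. All injured libraries were again higher, with 53.3 ± 11.8 CPM (SD, n = 6) against 10.9 ± 1.52 CPM (SD, n = 2), a ratio of 4.88 (2.29 on the log2 scale, and 2.15 without sham 1). The mild and severe libraries did not overlap, while the moderate libraries overlapped both.

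Cd4 went the other way. It was at 38.8 and 17.3 CPM in sham macrophages, 1.65 and 3.67 in mild, 6.67 and 4.99 in moderate, and 5.22 and 6.87 in severe ones. All injured libraries were lower, with 4.85 ± 1.96 CPM (SD, n = 6) against 28.1 ± 15.2 CPM (SD, n = 2), so that sham was 5.79 times the injured level. On the log2 scale the difference of means was −2.53, and it was −1.84 without sham 1, the library with the highest Cd4 and the neutrophil transcripts. Within the injured groups both mild libraries were below all moderate and severe libraries, which overlapped each other. How many of all genes separated sham from injured libraries in the same way was not counted, so the separation is a description only for each of the 3 genes. The same holds for the order of the injured groups, with 2 libraries each. In such sums a change of level within each cell and a change in which macrophages were present cannot be told apart. The 6 microglia markers summed to 344 and 832 CPM in sham and 66.7 to 194 CPM in injured macrophages.

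**Figure D1:**
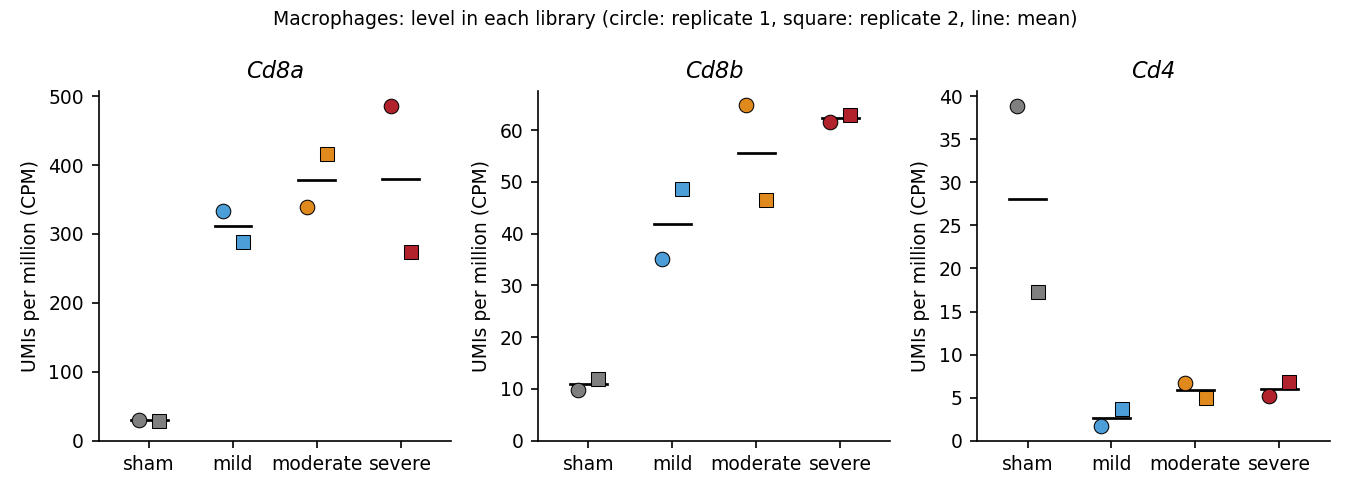
Level of Cd8a, Cd8b and Cd4 in macrophages of each library, in CPM (y axes, linear from 0), by injury group (x axis). Circles are replicate 1, squares replicate 2 and lines group means. For Cd8a and Cd8b all 6 injured libraries sit above the 2 sham libraries, and for Cd4 all 6 sit below them. How many of all genes separate in this way was not counted.

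The Cd8a signal was spread over many macrophages and was strong in some. At least 3 Cd8a UMIs were found in 2.05% and 3.33% of sham macrophages and in 35.4% to 51.7% of injured ones. The highest count in 1 macrophage was 20 and 23 UMIs in the sham libraries and 42 to 88 UMIs in the injured libraries. For Cd4, at least 3 UMIs were found in 5.04% and 0.822% of sham macrophages and in 0.0430% to 0.620% of injured macrophages. With every cell thinned to 1000 UMIs, the share of macrophages with a Cd8a UMI was 2.26% and 2.33% in sham and 17.1% to 27.9% after injury (unthinned, 13.6% to 13.9% and 56.1% to 76.1%). The thinned share with a Cd8b UMI was 0.728% to 0.943% in sham and 3.42% to 5.99% after injury, and with a Cd4 UMI 1.84% to 2.26% and 0.101% to 0.728%.

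Oligodendrocytes, which should lack all 3 genes, served as a measure of free RNA in the droplets, but one that may be too low. They were defined as cells with no Tyrobp UMI, so oligodendrocytes that had taken up free Tyrobp RNA were left out. Their median depth of 8319 to 16692 UMIs in the injured libraries was like that of macrophages, at 8939 to 17796 UMIs. At 1000 UMIs a cell, 4 of 909 injured oligodendrocytes held a Cd8a UMI, 1 held a Cd8b UMI and none held a Cd4 UMI. In sham 1, 0 of 475 oligodendrocytes held a Cd8a UMI, which allows a share of up to 0.632%. The oligodendrocyte level of Cd8a was 1.42 to 13.3 CPM after injury, below every macrophage value, and the highest of these values came from both moderate libraries. Injured neutrophils, whose definition required Tyrobp, were at 3.17 to 80.6 CPM. How much of that was free RNA was not tested. Thinned Cd4 shares of the mild 1 macrophages (0.101%) lie close to what so few UMIs can show.

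T cell and NK cell transcripts were limited inside the macrophages by their definition, which set CD3 UMIs to 0 and allowed at most 1 UMI over 6 of the NK markers. The 12 T cell genes, of which 9 had a UMI, summed to 34.3 and 35.5 CPM in sham and 14.4 to 30.9 CPM in injured macrophages, mostly from Cd6 and Cd2, receptors also known outside T cells. The 12 NK markers, of which 11 had a UMI, summed to 2.72 and 10.8 CPM in sham and 2.94 to 5.11 CPM after injury. In the injured libraries these sums were below those of sham for the T cell genes and between the sham values for the NK markers. In macrophages without a UMI of any of 21 T or NK markers, Cd8a was 26.0 and 33.0 CPM in sham and 298 to 551 CPM in the injured libraries.

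Macrophages held most of the transcripts of all 3 genes. Of all UMIs in kept cells they had 95.1% of Cd8a, 94.1% of Cd8b and 86.0% of Cd4. T cells had 1.56% of the Cd8a UMIs and 4.65% of the Cd4 UMIs. After injury macrophages held 95.6% of the Cd8a UMIs. The sham libraries were unlike each other: macrophages held 164 of 831 Cd8a UMIs in sham 1, where NK cells held 299 and T cells 258, but 633 of 643 in sham 2, where NK and T cells held 3 and 1. Without sham 1 the macrophage share was thus no lower in sham than after injury.

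In CPM, T cells (at least 2 CD3 UMIs and under 3 UMIs of the macrophage genes) and macrophages overlapped for Cd8a after injury. Injured T cells were at 377 ± 138 CPM (SD, n = 6; 204 to 582 CPM), a range that contains that of the macrophages, 274 to 485 CPM. NK cells were at 163 ± 61.2 CPM (SD, n = 5 libraries), below every macrophage library but overlapping the T cells. Neutrophils were at 39.2 ± 34.0 CPM (SD, n = 6) from 77 UMIs in all, oligodendrocyte precursors at 11.3 and 18.9 CPM in the only libraries with enough cells, and fibroblasts at 2.85 ± 2.80 CPM (SD, n = 6). In libraries with 20 or more cells of the class, B cells held 2 Cd8a UMIs and endothelial cells 1.

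In sham 1, the only sham library with 20 or more lymphoid cells of each kind, the order was different. Cd8a was at 377 CPM in NK cells, 173 CPM in T cells, 29.9 CPM in macrophages and 1.37 CPM in neutrophils. Cd8b was at 107 CPM in T cells and 1.26 CPM (1 UMI) in NK cells. Cd4 was at 44.2 CPM in T cells and 38.8 CPM in macrophages, whereas NK cells held no Cd4 UMI. In the injured libraries Cd8b was at 95.4 ± 32.9 CPM in T cells (SD, n = 6), above most macrophage values, and Cd4 was at 9.22 ± 6.90 CPM in T cells, overlapping the macrophages.

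**Figure D2:**
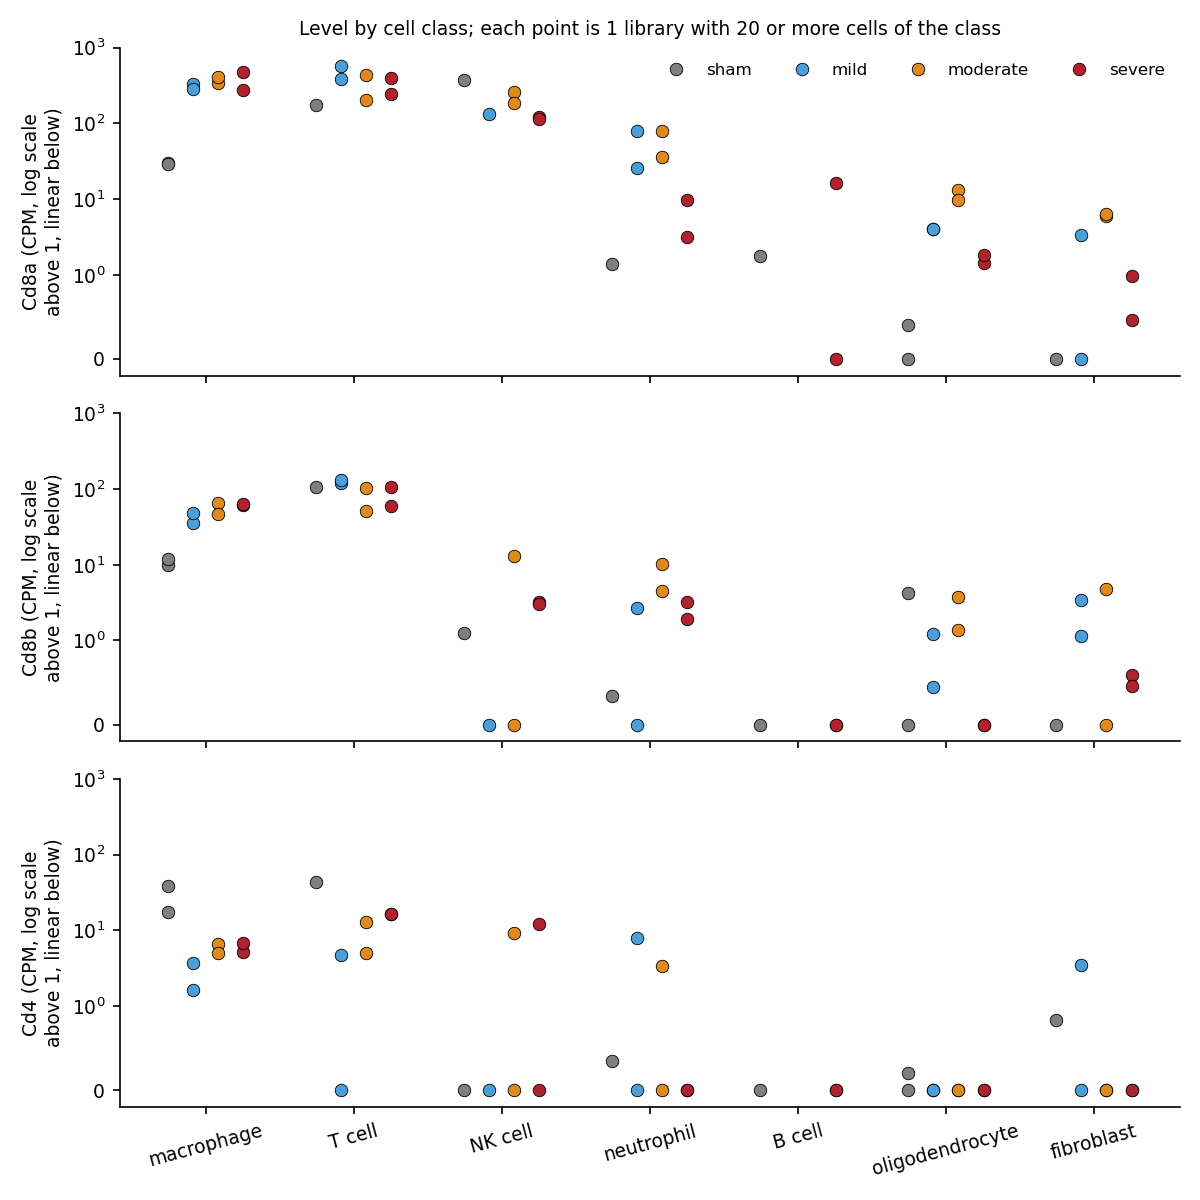
Level of the 3 genes in CPM (y axes, logarithmic above 1 and linear below) in 7 cell classes (x axis), with 1 point for each library that held 20 or more cells of the class, coloured by group. Cd8a in injured macrophages lies at 274 to 485 CPM, within the range of the T cells, and oligodendrocytes lie at or below 13.3 CPM.

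Both chains of CD8 were found, but not in the same proportion in every class. Cd8b made up 26.9 ± 3.07% of the Cd8a and Cd8b UMIs in sham macrophages (SD, n = 2; 24.8% and 29.1%) and 13.3 ± 3.66% in injured ones (SD, n = 6; 9.51% to 18.7%). The groups did not overlap, a description only with 2 sham libraries and genes chosen by their levels in these groups. In T cells the share was 38.3% in sham 1 and 20.4 ± 2.91% after injury (SD, n = 6; 17.0% to 25.7%). The macrophage and T cell ranges after injury overlapped between 17.0% and 18.7%. Within every library that had both values, however, the T cell share was the higher one. The values were closest in severe 2, at 20.9% in T cells and 18.7% in macrophages. NK cells, with 4 Cd8b UMIs in total against 434 Cd8a UMIs in the 6 libraries with enough NK cells, were at 0% to 4.76%. The share is a ratio of UMIs and not of protein, and the chains may be captured with unequal efficiency. Whether such a bias was alike in every class was not tested.

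**Figure D3:**
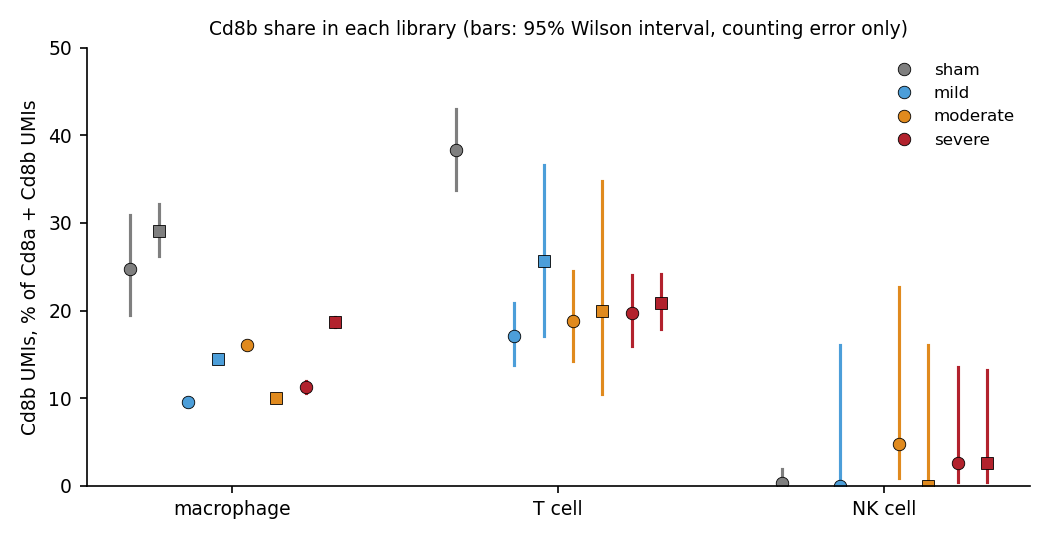
Cd8b UMIs as a percentage of Cd8a plus Cd8b UMIs (y axis) in macrophages, T cells and NK cells (x axis), 1 point per library with a 95% Wilson interval that covers counting error only, coloured by group, with circles for replicate 1 and squares for replicate 2. Injured macrophages lie at 9.51% to 18.7%, injured T cells at 17.0% to 25.7% and NK cells at or below 4.76%.

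Macrophages of the same library were then compared by markers of microglia and of infiltrating cells, a contrast that did not enter the choice of the genes. These markers do not establish where a cell came from. Microglia-marker cells had at least 3 UMIs over P2ry12, Tmem119, Sall1, Gpr34 and P2ry13 and fewer than 3 over Fn1, Vcan, F10, Emilin2 and Ms4a7, genes of infiltrating monocytes and macrophages, and infiltrating-marker cells had the reverse. There were 4951 and 9193 such cells, and 15.2% and 17.4% of all macrophages were within 1 UMI of the microglia and the infiltrating limit. A further 11985 macrophages reached neither limit, and these and the cells that reached both limits were left out of the comparison. Only 20 infiltrating-marker cells came from sham 2. F10 itself went against its class, at a log2 fold change of 1.26 towards the microglia-marker cells. The infiltrating-marker cells were also higher in 4 of 5 border macrophage markers (median log2 fold change −1.81). Of 6 neutrophil markers they were higher in 5 and lower in 1 (median −1.94). Over all genes tested, 50.8% were called.

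Cd8a was lower in the microglia-marker cells of all 8 libraries. The levels in microglia-marker and infiltrating-marker cells were 21.1 and 45.3 CPM in sham 1, 22.4 and 77.9 in sham 2, 214 and 415 in mild 1, 213 and 341 in mild 2, 175 and 416 in moderate 1, 341 and 452 in moderate 2, 111 and 579 in severe 1, and 116 and 368 in severe 2. The infiltrating-marker cells were at 1.33 times the microglia-marker level in moderate 2 and up to 5.23 times in severe 1. The log2 fold change was −1.40 (SE 0.19, adjusted p = 4.00e-05, edgeR quasi-likelihood test with library as a block and Benjamini-Hochberg adjustment). In this comparison 50.8% of the 10299 genes tested were called, so that a call by itself was common. Within the microglia-marker cells alone, injured libraries were still at 111 to 341 CPM against 21.1 and 22.4 CPM in sham, without overlap. The share of all genes without overlap was not counted here either.

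Cd8b was also lower in the microglia-marker cells of all 8 libraries, with 9.05 against 13.8 CPM in sham 1 and 9.84 against 21.6 CPM in sham 2 (5 UMIs in the latter infiltrating-marker cells). After injury it was at 18.0 to 43.0 CPM in microglia-marker cells and 40.4 to 75.6 CPM in infiltrating-marker cells. The injured macrophages of neither class were at 32.9 to 84.3 CPM, so the highest Cd8b values lay outside the 2 classes compared. Microglia-marker and infiltrating-marker cells were close in moderate 2, at 43.0 and 44.9 CPM. The log2 fold change was −1.04 (SE 0.16, adjusted p = 0.000136). Because Cd8b differed less than Cd8a, its share of the CD8 UMIs was higher in the microglia-marker cells of 8 of 8 libraries, at 30.0% and 30.5% against 23.4% and 21.7% in sham and 10.7% to 17.5% against 8.86% to 15.6% after injury.

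Cd4 was higher in the microglia-marker cells of all 8 libraries. In microglia-marker and infiltrating-marker cells it was at 32.6 and 28.4 CPM in sham 1, 18.6 and 17.3 in sham 2, 2.16 and 1.16 in mild 1, 5.96 and 1.74 in mild 2, 11.0 and 2.39 in moderate 1, 8.59 and 3.39 in moderate 2, 8.66 and 3.43 in severe 1, and 7.98 and 5.16 in severe 2. Macrophages of neither class were at 52.5 CPM in sham 1, above both classes, and at 9.68 CPM in sham 2, below both. After injury they were at 2.07 to 7.94 CPM. The ratio of microglia-marker to infiltrating-marker cells was near 1 in both sham libraries (1.07 at the lowest) and reached 4.60 in moderate 1. The infiltrating-marker value of sham 2 rested on 4 Cd4 UMIs, so the direction in that library is uncertain. The log2 fold change was 0.98 (SE 0.22, adjusted p = 0.00238). Without the library block the calls of Cd8a and Cd4 were lost (adjusted p = 0.0714 and 0.387, edgeR quasi-likelihood test), as the differences between libraries then entered the spread, and that of Cd8b stayed (adjusted p = 0.0231).

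**Figure D4:**
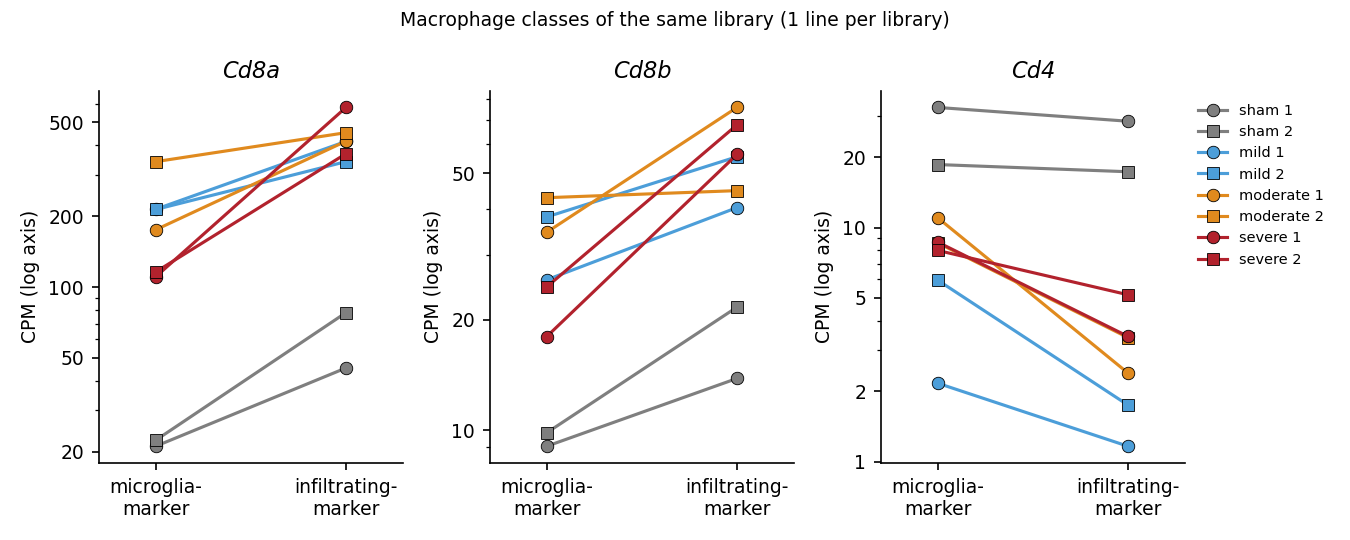
CPM (logarithmic y axes) of Cd8a, Cd8b and Cd4 in microglia-marker and infiltrating-marker macrophages (x axis), with 1 line per library. All 8 lines rise for Cd8a and Cd8b and all 8 fall for Cd4.

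Other genes differed more between these classes. The 5 named genes with the largest differences towards the microglia-marker cells were Grxcr1 (log2 fold change 3.69), AABR07027306.1 (3.40), the channel Trpc6 (3.38), the fructose transporter Slc2a5 (3.31) and Golm1 (3.31). Towards the infiltrating-marker cells they were LOC100911104 (−6.90), the protease inhibitor Slpi (−6.83), thrombomodulin Thbd (−6.40), haptoglobin Hp (−6.26) and RGD1559482 (−6.25). Of the list of MHC class II genes and Il16, 5 of 8 tested genes were lower in the microglia-marker cells and 2 higher, with a median log2 fold change of −1.49 against 0.03 over all genes. The invariant chain Cd74 was at −1.54 and the class II chain RT1-Da at −2.13, while Il16, which encodes the soluble ligand of CD4, was at 1.5. Of the MHC class I presentation genes, the ligand side of CD8, 5 of 11 were higher and none lower, with RT1-N3 at 0.72 and Tap1 at 0.33. This was no larger a share than the 50.8% called over all genes.

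The signalling partners were split. Of 13 kinases and adaptors, 5 were higher and 6 lower in the microglia-marker cells, among them Lck (1.20), the kinase that binds CD4 and CD8, and Fyn, its relative, at −3.12. Of 9 tested transcription factors known to control the Cd4 and Cd8 genes in T cells, 4 were higher, namely Lef1 (2.52), Ikzf1 (0.96), Patz1 (0.95) and Runx1 (0.49), and none lower. With 50.8% of all genes called, such a count is no result about these factors. Fc gamma receptors moved both ways, with Fcgr3a at 2.71 and Fcgr1a at −0.30. Scaling by library size alone shifted all genes by 0.17 on the log2 scale towards the microglia-marker cells. It turned the split of called genes from 2753 higher and 2477 lower to 4193 and 1729, left the kinases at 5 higher and 3 lower, and left Fcgr1a uncalled. Of the T cell genes tested, Cd2 was lower (−5.10) and Cd6 higher (2.91), and the single NK marker tested, Klrb1a, was lower (−1.13). The part of these transcripts in the differences of Cd8a and Cd4 was not tested.

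Macrophages in which a Cd8a transcript was caught were next compared with the others of the same library, after each cell had been thinned to 5000 UMIs. Of 24089 macrophages deep enough, 11799 held a Cd8a UMI, and the share ran from 8.07% to 63.1% of a library. Cd8b went with Cd8a. In cells with and without a Cd8a UMI it was at 33.3 and 10.1 CPM in sham 1, 38.3 and 8.59 in sham 2, 44.2 and 17.9 in mild 1, 58.4 and 30.5 in mild 2, 80.9 and 40.9 in moderate 1, 46.7 and 34.6 in moderate 2, 74.6 and 35.2 in severe 1, and 89.4 and 33.1 in severe 2. It was higher in 8 of 8 libraries, with a log2 fold change of 1.18 (SE 0.10, adjusted p = 3.26e-07, edgeR quasi-likelihood test). Of the 10132 genes tested, 34.2% were called. Counted by cells, 13.3% to 28.6% of the cells with a Cd8a UMI also held a Cd8b UMI, against 3.74% to 15.1% of the others, and 2777 cells held both.

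Cd4 was lower in the cells with a Cd8a UMI in 8 of 8 libraries. It was at 20 against 49.1 CPM in sham 1 and 9.93 against 21.3 CPM in sham 2, and at 1.28 to 5.34 CPM against 1.65 to 10.3 CPM after injury. The smallest gap was in mild 1, where Cd4 was lowest in both (1.28 and 1.65 CPM). The log2 fold change was −0.88 (SE 0.12, adjusted p = 3.78e-05). Both transcripts did occur in the same macrophage: 212 cells held a Cd8a and a Cd4 UMI. Only 3 of these were in sham 1, 6 in sham 2, 10 in severe 1 and 12 in mild 1. The Cd4 levels with Cd8a in those libraries thus rest on few cells, and the direction in each is uncertain.

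The largest differences among the named genes were those of Apoc1 (1.69), Spp1 (1.21), Fabp5 (1.20), Cd8b (1.18) and Apoe (1.14), of which Apoc1 and Apoe encode apolipoproteins, Fabp5 a fatty acid binding protein and Spp1 osteopontin. On the other side were Mgp (−2.00), LOC100910270 (−1.39), the leukotriene synthase Ltc4s (−1.35), the chemokine Cxcl10 (−1.25) and the lectin Clec10a (−1.24). The MHC class II list was lower in the cells with Cd8a in 7 of 8 tested genes, Il16 included, with a median of −0.97 against −0.02 over all genes. RT1-Db1 was at −1.08, RT1-Bb at −1.02, RT1-Da and RT1-Ba at −1.01 and Cd74 at −0.93. All 6 microglia markers were lower, from −1.21 for P2ry12 to −0.52 for Cx3cr1, as were 3 of 5 border macrophage markers, Cd163 (−1.76), Lyve1 (−0.76) and F13a1 (−0.67), while Mrc1 was at 0.15 and missed the threshold.

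Of 11 MHC class I presentation genes 1, RT1-CE5, was lower (−0.16). Among the kinases and adaptors, Syk was higher (0.27) and Lck was lower (−0.62). Of 9 regulators, 4 were lower, among them Lef1 (−0.73) and Runx1 (−0.39), and none higher, where 34.2% of all genes were called. With scaling by library size alone all genes shifted by −0.11, 6 class I genes, 6 regulators and 6 kinases and adaptors were lower, and the split of called genes went from 1666 higher and 1803 lower to 925 and 3135. The T cell genes Cd6 (−0.84) and Cd2 (−0.65) were lower in the cells with Cd8a, and the 1 NK marker tested was not called. Oligodendrocyte markers were lower too, in 6 of 7 genes with a median of −1.36. The part of these transcripts in the result was not tested.

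The microglia and infiltrating classes also entered this comparison unequally, so it was repeated inside each, in the 6 libraries with enough cells. For infiltrating-marker cells these were the injured libraries. For microglia-marker cells they were sham 2 and the injured libraries except severe 1. Class and set of libraries therefore cannot be told apart where the results of the 2 classes differ. Cd4 was not among the genes tested in either class, so its lower level with Cd8a was not checked for class mix. In infiltrating-marker cells 1592 of 8293 genes tested were called. Cd8b was at 0.80 (adjusted p = 3.66e-06, edgeR quasi-likelihood test), Apoe at 0.76, Spp1 at 0.74 and Apoc1 at 1.10. RT1-Db1 was at −0.87, RT1-Ba at −0.81, RT1-Da at −0.80, Cd74 at −0.77 and RT1-Bb at −0.62, and all of these passed the threshold. In microglia-marker cells 820 of 6902 genes tested were called, with Cd8b at 1.45 (adjusted p = 8.39e-09), Apoc1 at 1.49, Spp1 at 1.18 and Apoe at 0.96. There Cd74 (−0.55) and RT1-Ba (−0.47) were lower, but RT1-Da (−0.22, adjusted p = 0.30) and RT1-Db1 (−0.18, adjusted p = 0.40) missed the threshold. Of the microglia markers, P2ry12 (−0.71), Tmem119 (−0.33) and Cx3cr1 (−0.24) were lower in these cells too. Gpr34 (−0.15, adjusted p = 0.28), P2ry13 (−0.11, adjusted p = 0.74) and Sall1 (−0.27, adjusted p = 0.15) missed the threshold. Mgp was lower in infiltrating-marker cells with Cd8a (−1.95) and higher in microglia-marker cells with Cd8a (1.19). Lyve1 likewise was lower in the former (−0.58) and higher in the latter (0.32), and Il16 passed the threshold in neither (0.14 and −0.39, adjusted p = 0.625 and 0.0975). Cd163 missed the threshold in infiltrating-marker cells (−0.72, adjusted p = 0.179). Mrc1 was higher with Cd8a in microglia-marker cells (0.43, adjusted p = 0.0407) and was not called in infiltrating-marker cells (0.17).

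The macrophages were also split by a Cd4 UMI, over the same cells as the split by Cd8a, so the comparisons are not independent. Only 757 macrophages held a Cd4 UMI at 5000 UMIs, from 26 cells in mild 1 and severe 1 to 219 in moderate 1, and 9.09% of 6987 genes were called. Cd8a in cells with and without Cd4 was at 9.84 and 28.7 CPM in sham 1, 14.6 and 24.2 in sham 2, 331 and 306 in mild 1, 215 and 267 in mild 2, 200.04 and 333 in moderate 1, 251 and 396 in moderate 2, 362 and 419 in severe 1, and 118 and 246 in severe 2. It was lower in 7 of 8 libraries, with mild 1 the exception, at a log2 fold change of −0.62 (SE 0.11, adjusted p = 0.000439). Cd8b was at −0.89 (SE 0.17, adjusted p = 0.00122), a call that was lost with thinning to 2000 UMIs (−0.28, adjusted p = 0.754). Inside the infiltrating-marker cells, Cd8a was at −0.19 (adjusted p = 0.816) and Cd8b at −0.76 (adjusted p = 0.456), and inside the microglia-marker cells at −0.83 (adjusted p = 0.0491) and −0.53 (adjusted p = 0.744), with 3 libraries in each. All of these p-values came from the edgeR quasi-likelihood test. The infiltrating-marker cells came from moderate 1, moderate 2 and severe 2, and the microglia-marker cells from sham 2, moderate 1 and severe 2. Class and set of libraries again cannot be told apart where the classes differ.

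In the cells with Cd4, Clec10a (2.03), the hyaluronan receptor Lyve1 (1.60), Ctla2a (1.57), the neonatal Fc receptor Fcgrt (1.41) and the chemokine Ccl6 (1.33) were highest among the named genes. Thbs1 (−2.86), Upp1 (−1.94), arginase Arg1 (−1.75), Hsd11b1 (−1.42) and Bnip3 (−1.26) were lowest. Of 5 border macrophage markers 4 were higher, with the haemoglobin scavenger Cd163 at 2.63 and the mannose receptor Mrc1 at 1.26. Of 6 genes tested of the MHC class II list 5 were higher, with a median of 0.85 against 0.00 over all genes, led by RT1-Bb (1.09) and RT1-Db1 (0.99), and Il16 was at 0.34 and not called. Inside the infiltrating-marker cells, where 179 of 8322 genes tested were called, the class II genes stayed higher with Cd4. RT1-Db1 was at 2.01, RT1-Ba at 1.98 and Cd74 at 1.47. Inside the microglia-marker cells, where 97 of 7884 genes tested were called, none of the 5 passed the edgeR threshold. Cd74 was at 0.27 (adjusted p = 0.412) and RT1-Db1 at 0.62 (adjusted p = 0.0622). Of 6 microglia markers, P2ry13 (0.97) and Gpr34 (0.48) were higher over all macrophages. Inside the microglia-marker cells edgeR called neither (0.35 and −0.07), nor Lyve1 (−0.52) or Apoe (−0.09). There Clec10a (1.87) and Mrc1 (1.52) stayed higher, and Spp1 (−0.84), Fabp5 (−0.87) and Apoc1 (−0.76) lower, with calls. Inside the infiltrating-marker cells Lyve1 (1.49), Clec10a (1.37) and Mrc1 (1.10) were called higher and Apoe (−0.58) lower, and Gpr34 (0.51) was not called. No kinase or adaptor (0 of 11) and no regulator (0 of 5) was called by edgeR, and 3 of 5 oligodendrocyte markers were lower.

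**Figure D5:**
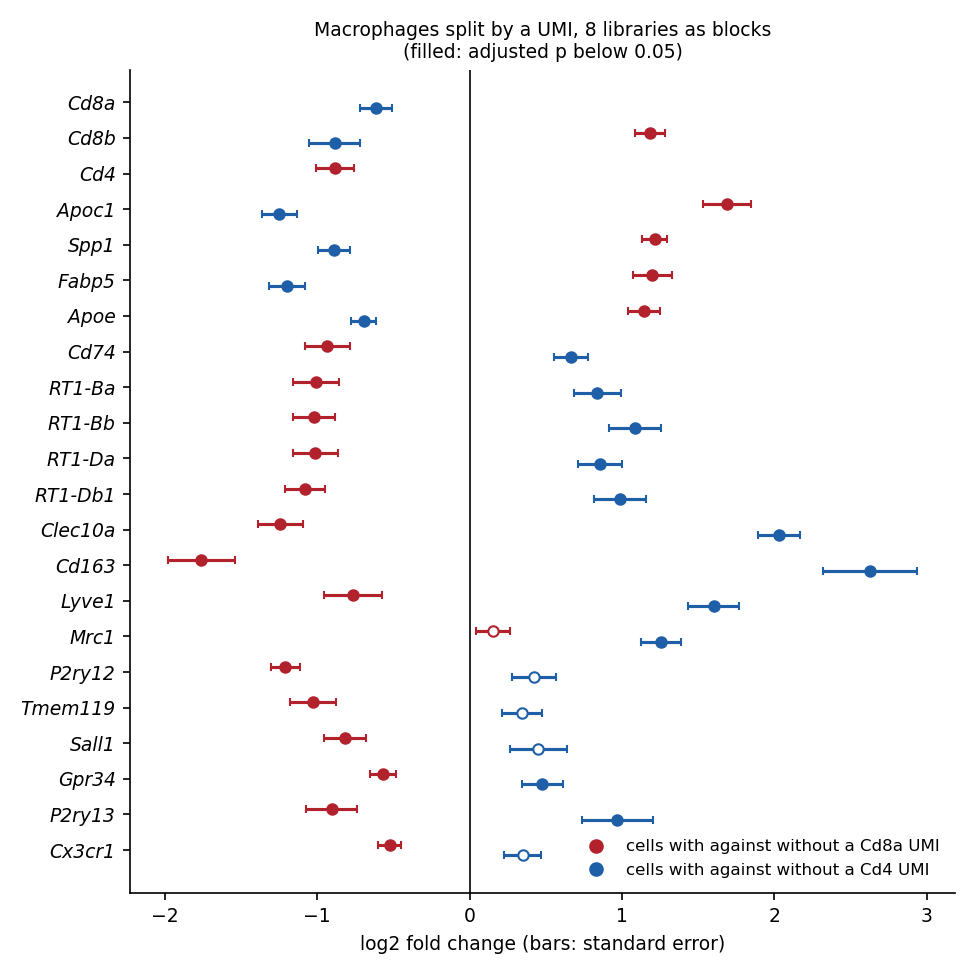
Log2 fold change with its standard error (x axis) of the other members and of selected genes (y axis) between macrophages with and without a Cd8a UMI (red) and with and without a Cd4 UMI (blue), fitted within 8 libraries; filled points have an adjusted p under 0.05. MHC class II genes lie near −1 in the split by Cd8a and between 0.67 and 1.09 in the split by Cd4, and Apoc1, Spp1, Fabp5 and Apoe lie on the opposite sides.

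Between injured and sham macrophages, few genes of these pathways passed the test, which had little power. In simulated data for mild against sham it recovered 0% of genes changed 2-fold and 14% of those changed 4-fold. The simulation changed 200 genes, fewer than the 610 called in mild, so the power with more changed genes was not tested. A missing call here therefore does not show that a gene was unchanged. The fit called 610 of 13776 genes in mild (4.43%), 163 in moderate (1.18%) and 859 in severe (6.24%) against sham. No gene of the MHC class II list (10 tested) was called by edgeR in any of the 3 comparisons, and neither was any T cell gene (4 tested), NK marker (4 tested) or Fc gamma receptor (3 tested). In mild, the kinase Btk was lower (−2.26), the regulator Ikzf1 was lower (−1.95), and the class I genes RT1-CE10 (−2.28) and RT1-S3 (−1.44) were lower. In moderate only RT1-S3 (−1.5) of these lists was called. In severe the regulator Runx3 was higher (2.12), the microglia gene Sall1 was lower (−3.31) and the myeloid lysozyme Lyz2 was higher (2.10). Among markers of other cell types, the dendritic cell factor Batf3 (−2.73) and the oligodendrocyte gene Mbp (−1.57) were lower in severe, and their part in the differences was not tested. These counts rested on few libraries: with 1 library left out they ran from 0 to 1918 in mild, 0 to 1234 in moderate and 132 to 1694 in severe. The 6 microglia markers had medians of −2.24, −2.16 and −2.16 in mild, moderate and severe, with 0, 0 and 1 called. Under scaling by library size, which moved the median of all genes in severe by −0.47, neither Runx3 nor Lyz2 was called as higher. In severe 2 of 3 Fc gamma receptors, 5 of 11 regulators, 3 of 13 kinases and adaptors, 4 of 6 microglia markers and 1 of 12 class I genes were then lower. The called genes of severe were mostly lower (341 higher, 1687 lower, against 549 and 310).

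Over the 8 library sums of macrophages, the levels most like those of Cd8a were those of Eci2 (Pearson r = 0.991), Smpdl3a (0.985), Rarres1 (0.984), Pla2g7 (0.974) and Tcirg1 (0.972), of 4463 genes with a mean of at least 20 CPM. For Cd8b they were Smpdl3a (0.977), Grina (0.977), Ifitm1 (0.976), Rarres1 (0.966) and Apoc1 (0.966). For Cd4 they were Shoc2 (0.961), Prpf4b (0.956), B2m (0.955), Hltf (0.954) and Irf2 (0.952). Smpdl3a and Rarres1 stood on the lists of both CD8 chains. The 8 points fall into sham and injured libraries, so these values are a description and mostly restate the difference between them.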

How the data were processed

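For each library the authors deposited raw UMI counts per gene and cell, made from 3′ libraries with Cell Ranger on Rnor_6.0 per the submitters' processing notes in the labels; the version in the file headers differs from that in the study's methods, so none is given. Cells with over 10% mitochondrial UMIs, then the 7.7% of each library with the highest Scrublet score (scanpy 1.11.5), then cells beyond 2 SD of UMIs or genes were removed. Classes were set by limits on marker UMIs, and a library entered a class with 20 cells. Members and lists were chosen with earlier results of these data known, and limits were set after marker levels had been looked at.

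Counts were summed per library (and class or split) and tested with edgeR 4.0.16 (R 4.3.3; TMM, filterByExpr, quasi-likelihood test, Benjamini-Hochberg adjustment over all genes, threshold 0.05). Injured groups were compared with sham in 1 fit of 8 libraries. Classes and splits had library as a block, and a split's own gene was left out. Named genes had the 5 largest changes per direction with a mean of 50 CPM, the same sign in every library and no part in the definitions. Lists that overlap the definitions (microglia and infiltrating markers) are no result between classes. DESeq2 1.42.0 and other settings were alternatives. The steps were tested on simulated data: of genes changed 2-fold and 4-fold, 0% and 14% were recovered in mild against sham, 86% and 100% between classes, 97% and 100% in the split by Cd8a, and 89% and 99% in the split by Cd4. In the same order, 0, 13, 17 and 21 unchanged genes were called. In each simulation with library as a block, these were a larger share of the calls than the threshold of 0.05. Each simulation changed 200 genes, fewer than were called in the real class and split fits and in mild against sham. How the steps behave when so many genes differ was therefore not tested. Intervals cover counting error only. The authors' own clusters and analyses were not used here. Results for 1 gene of the lists are not reported here.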

Additional observations from a re-analysis of the deposited data

How the results depend on the processing

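Over 16 results and 243 alternatives, 181 stayed the same, 56 moved by more and 6 lost a call. For tested genes, the same meant the same direction and side of the threshold. For counts it meant within 1.5 times, and for levels a shift on the log2 scale under the SD between replicates. No tested gene or level reversed its direction, and a count has none to reverse. The levels of Cd8a kept to 3.48 to 3.75 (log2 of injured over sham, 3.59 as reported). With the Tyrobp limit alone, Cd8b went from 2.29 to 2.64 and Cd4 from −2.53 to −1.57, where sham 1 is mostly neutrophils. Leaving out each library in turn gave −3.00 to −1.84 for Cd4, the last without sham 1. Genes called in mild, moderate and severe against sham (610, 163 and 859) were 2148, 1582 and 2304 without the filter on low counts and 2135, 1343 and 2305 with DESeq2. With all deposited cells mild and moderate had 332 and 42. With Tyrobp alone edgeR called 0, 0 and 99 (3508 and 2503 genes in the first 2 at an unadjusted p under 0.05), and with only the 2 groups compared 0, 0 and 84 (2954 and 2000). Severe had 2028 with library size alone. Leaving out 1 library gave 0 to 1918, 0 to 1234 and 132 to 1694, and each of the 8 omissions moved each count by over 1.5 times; without sham 1 the counts were 1918, 1234 and 1663, and without either mild library mild had 0 (1916 and 2415 unadjusted), as had moderate without moderate 2 (1469). With the replicate number as a block they were 144, 52 and 459. Same-numbered libraries deviated together by r = −0.29 to 0.31 only, and the labels name no pairing. With 2 libraries per group this cannot exclude that same-numbered libraries were handled together. Without the library block between classes 2330 genes were called, with Cd8a at −1.39 and Cd4 at 0.88, neither past the threshold. The split by Cd8a (3469) gave 1993 genes with thinning to 2000 UMIs, 1592 and 820 in infiltrating-marker and microglia-marker cells alone. The split by Cd4 (635) gave 1395 without the filter, 164 with thinning to 2000 UMIs (6 libraries), 2155 without thinning, 1043 with all deposited cells, 179 and 97 in the classes alone, and 332 to 800 with 1 library left out, the lowest without moderate 1. With library size alone its split went from 285 higher and 350 lower to 426 and 268. The checks inside classes, the doublets kept in the levels and the left-out libraries of the levels were chosen after seeing the data. A stricter class limit left out sham 2. The cause of these moves was not tested. The sham libraries held 536 and 2069 macrophages and all macrophages 2109 Cd4 UMIs, which limits the depth.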
